A study of Homo sapiens with 24 samples.

Results

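The genes described here encode the proteasome and the enzymes that charge ubiquitin and related small modifiers, and they were taken by symbol: every entry of the deposited gene table that begins with PSMA to PSMG and a digit or with UBE2 and a letter, or that is one of UBA1 to UBA7. The rule found 77 of the 9822 genes in the table. They comprise 11 core subunit genes (4 PSMA and 7 PSMB), 19 regulator genes (5 PSMC and 14 PSMD), 5 activator and inhibitor genes (PSME1 to PSME4 and PSMF1), 4 assembly chaperone genes (PSMG1 to PSMG4), 6 E1 genes and 29 E2 genes. A further 3 matches, PSMC3IP, PSME3IP1 and PSMG3-AS1, are not proteasome subunit genes, which leaves 74 without them. The remaining subunit genes of these families, among them the inducible immunoproteasome genes PSMB8, PSMB9 and PSMB10, were not analysed here.

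The study exposed MOLT4 cells, an established human line from a T-cell leukaemia, to SK-3-91, described by the submitters as a degrader of many kinases, or to the solvent DMSO. RNA was taken at 1 h, 4 h and 8 h, with 4 libraries in each of the 6 groups: SK-3-91 for 1 h, 4 h or 8 h, and DMSO for the same times. The sources used here give no dose, and all libraries come from the same cell line. The labels do not state whether the replicates are independent cultures. All p-values therefore weigh differences against the scatter of the libraries, part or all of which may be technical.

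Proteins are marked for destruction by a relay in which an E1 enzyme activates ubiquitin, an E2 enzyme carries it and an E3 ligase places it on the substrate. The proteasome, which degrades the marked proteins, is a barrel-shaped core of alpha and beta rings capped by a regulator, whose ATPases unfold the substrate and whose other subunits bind and remove ubiquitin. Related E1 and E2 pairs carry NEDD8, SUMO, ISG15 and UFM1, and a degrader drug acts through the same machinery by bringing an E3 ligase to its target.

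Counted reads ranged from 6.863 to 14.626 megareads per library. They averaged 13.612 ± 0.032 megareads with SK-3-91 and 14.146 ± 0.126 with DMSO at 1 h, 10.78 ± 0.097 and 14.431 ± 0.117 at 4 h, and 8.3 ± 0.982 and 14.241 ± 0.464 at 8 h (SD, n = 4). All 15 T-lineage markers on the list were measured; their summed level was 3554.7 to 4896.9 CPM (counts scaled by library size) in SK-3-91 libraries and 4653.5 to 5308.2 CPM in DMSO libraries. Of the lists for other cell types, the table held 1 of 6 B-cell markers (CD79A, 10.2 to 24.4 CPM with SK-3-91 and 6.9 to 11.3 CPM with DMSO), 1 of 6 fibroblast or endothelial markers (PECAM1, 12.7 to 43.4 and 36 to 47.2 CPM), and none of the myeloid, epithelial or erythroid markers. The part of depth and of these markers in the results was not tested. Without scaling factors the median log2 fold change of all genes would be 0.30 lower at 4 h and 0.43 lower at 8 h than with the TMM factors used, and with upper-quartile factors 0.06 and 0.17 lower, so a direction here is relative to the other genes of the table.

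At 1 h, 36 members were higher and 8 lower with SK-3-91 (edgeR adjusted p under 0.05), which is 46.8% and 10.4% of the 77, beside 24.9% and 29.4% of all genes. RLE factors gave 47 higher and 3 lower. At 4 h, 46 members were higher and 26 lower, beside 42% and 45.9% of all genes, and without scaling factors 32 were higher and 32 lower. At 8 h the members split evenly, 36 higher and 36 lower, beside 41.3% and 48.1% of all genes, and without scaling factors the split was 28 to 45. Over the members the median log2 fold change at 1 h, 4 h and 8 h was 0.11, 0.29 and 0.00, against 0.01, -0.05 and -0.11 over all genes. In bulk RNA, fewer cells of a type and less RNA per cell cannot be told apart.

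The classes moved differently. Core genes had median log2 fold changes of 0.22, 0.85 and 0.46 at 1 h, 4 h and 8 h, regulator genes 0.11, 0.36 and -0.16, and E2 genes 0.05, 0.14 and 0.28. Without scaling factors the core medians were still above 0, at 0.55 at 4 h and 0.03 at 8 h, whereas the E2 medians turned to -0.16 and -0.15. The E2 median at 8 h was also -0.12 without the members that share sequence with other genes. The assembly chaperone genes were the class with the lowest median at 4 h and at 8 h, -0.84 and -1.26. At 8 h, changes of at least 2-fold were called upward in 8 members (10.4%) and downward in 12 (15.6%), beside 16.8% and 23.5% of all genes, so large changes were not more frequent among the members than in the table as a whole.

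**Figure D1:**
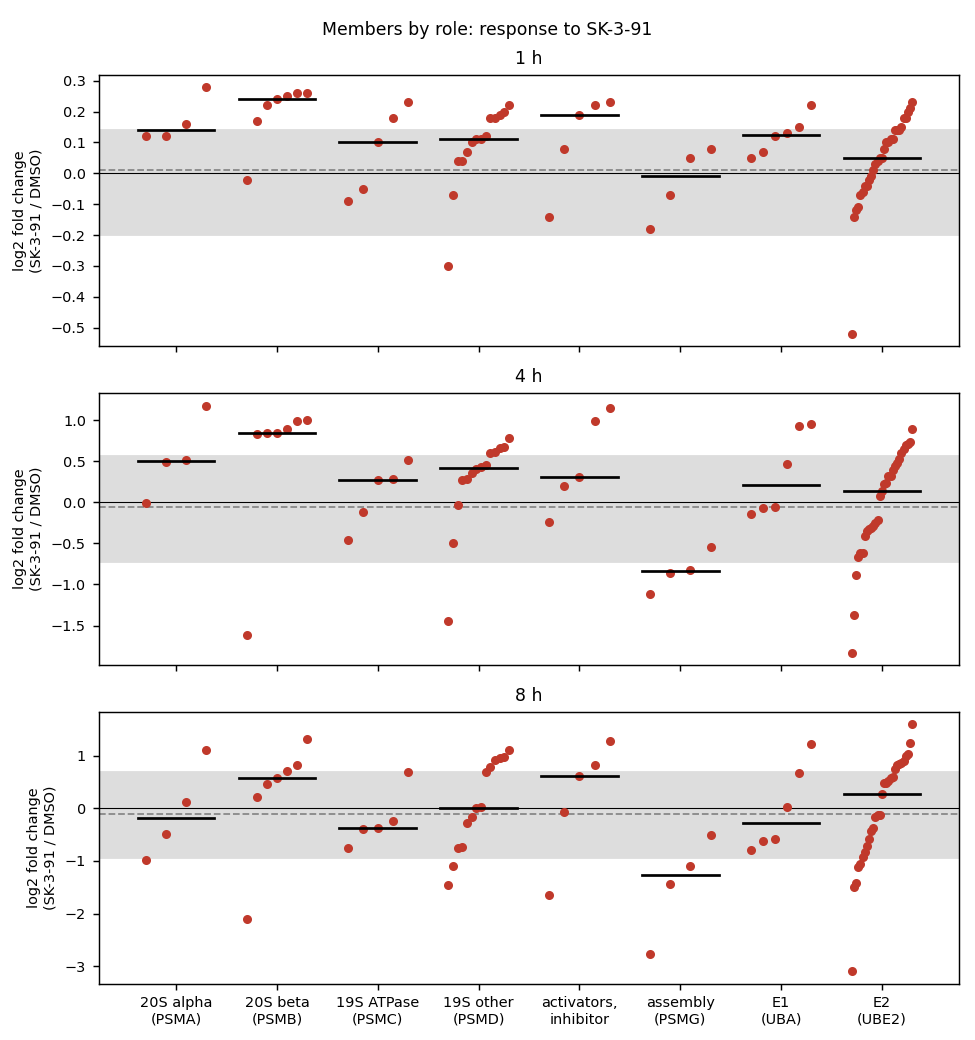
Log2 fold change (SK-3-91 over DMSO) of each member by role at 1 h, 4 h and 8 h, with 1 point per gene, a black bar for the class median, the grey band for the middle 50% of all 9822 genes and a dashed line for their median; the vertical scales differ between panels. The PSMB points at 4 h cluster between 0.84 and 1.01 except PSMB5 at -1.61, and all 4 PSMG points at 4 h and 8 h lie below 0.

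Promoters were searched for short motifs because some of the members have known regulators. NFE2L1, a transcription factor of proteasome subunit genes, reads the antioxidant response element. It was searched in a loose form, TGANNNNGC, with any base at N, so a match need not be a full element. The RefSeq promoter table (GRCh38.p14) matched 62 of the 77 members with 81 start sites, and the 250 bases before each start were searched on both strands. TGANNNNGC was found in 45.7% of member windows and in 35.2% of all 35116 windows. It was in 7 of 10 core subunit windows, which cover 7 genes, as PSMA7, PSMB1, PSMB6 and PSMB7 had no window. It was also in 3 of 4 windows of the assembly chaperones, which fell, and in 0 of 5 E1 windows. CCGGAAG, an ETS factor motif, was in 22.2% of member windows and 8.52% of all windows, CCAAT in 35.8% and 32%, and TTTGAA or TTCGAA, a motif of cell-cycle gene promoters, in 6.17% and 14.3%. Over the 11872 windows of genes in the count table the shares were 35.5% for TGANNNNGC, 15.2% for CCGGAAG, 33.5% for CCAAT and 10.2% for TTTGAA or TTCGAA, nearer to those of the members for the ETS and cell-cycle motifs. These motifs are matches of letters and not measured binding. The windows of the core, chaperone and E2 genes with the largest decrease at 8 h, and of the core gene with the largest increase, are shown because they are the extremes of the results that follow. Capitals mark TGANNNNGC on either strand in the first 3 windows, in which PSMB2 has no match, and TTTGAA in the UBE2T window; all 4 genes lie on the minus strand and are written 5′ to 3′ on it.
PSMB5 (chr14:23035221-23035470): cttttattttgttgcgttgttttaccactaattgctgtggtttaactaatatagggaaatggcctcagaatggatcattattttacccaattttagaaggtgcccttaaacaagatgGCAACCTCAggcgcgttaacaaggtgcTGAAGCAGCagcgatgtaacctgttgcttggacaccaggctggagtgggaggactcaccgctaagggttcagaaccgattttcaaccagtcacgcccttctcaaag
PSMG1 (chr21:39183452-39183701): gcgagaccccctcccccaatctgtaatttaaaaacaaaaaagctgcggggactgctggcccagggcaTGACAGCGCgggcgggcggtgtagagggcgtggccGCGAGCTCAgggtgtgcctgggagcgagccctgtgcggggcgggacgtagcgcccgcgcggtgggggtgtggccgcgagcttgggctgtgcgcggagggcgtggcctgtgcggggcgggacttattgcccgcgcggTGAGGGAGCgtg
PSMB2 (chr1:35641527-35641776): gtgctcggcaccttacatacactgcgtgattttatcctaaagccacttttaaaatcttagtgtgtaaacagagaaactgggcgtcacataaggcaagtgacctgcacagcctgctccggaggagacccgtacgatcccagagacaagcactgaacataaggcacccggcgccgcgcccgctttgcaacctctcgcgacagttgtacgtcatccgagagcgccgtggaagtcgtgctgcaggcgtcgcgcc
UBE2T (chr1:202341937-202342186): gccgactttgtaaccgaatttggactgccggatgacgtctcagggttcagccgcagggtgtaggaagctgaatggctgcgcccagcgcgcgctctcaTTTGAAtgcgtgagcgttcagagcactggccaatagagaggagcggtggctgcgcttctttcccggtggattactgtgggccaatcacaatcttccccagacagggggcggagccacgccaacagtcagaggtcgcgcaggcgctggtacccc
Matches in PSMB5 begin 133 and 106 bases before this start, and those in PSMG1 183, 148 and 12 bases before it. A second PSMB5 window (chr14:23034901-23035150), not shown, has 1 match, and the UBE2T window has 1 match of TGANNNNGC that is not marked. PSMB5, which fell, and PSMB4, which rose and has 3 matches, both hold the motif, and PSMB2, which rose, does not. These genes were picked after their values were seen. Any relation of the motif to the response was not tested.

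The core subunit genes other than PSMB5 rose together at 1 h, and by 8 h PSMA4, PSMA5 and PSMB5 were called lower. At 1 h, 10 of 11 were higher and 0 lower, with log2 fold changes of 0.12 to 0.28 for the 10. At 4 h, 9 were higher and 1 lower, and at 8 h 8 were higher and 3 lower. Without scaling factors the 8 h counts were 5 and 5. Over all genes the shares higher and lower were 24.9% and 29.4% at 1 h, 42% and 45.9% at 4 h, and 41.3% and 48.1% at 8 h. The 6 beta genes other than PSMB5 were higher at each of the 3 times, with a median of 0.25, 0.87 and 0.65, although without scaling factors PSMB6 turned to -0.22 at 8 h.

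PSMB5 encodes the beta subunit with chymotrypsin-like activity, the main target of the proteasome inhibitor bortezomib. At 1 h it stood at 58.4, 54.8, 61.5 and 54.3 CPM with SK-3-91, against 59.6, 63.1, 55.6 and 54.0 CPM with DMSO. At 4 h it stood at 23.0, 27.4, 22.2 and 22.5 CPM with SK-3-91, against 74.3, 68.5, 71.8 and 76.0 CPM with DMSO. By 8 h the SK-3-91 libraries held 18.5, 14.5, 20.5 and 15.4 CPM, against 70.6, 76.2, 72.4 and 75.4 CPM in the DMSO libraries. The groups overlapped at 1 h and were far apart from 4 h on. In DMSO the PSMB5 mean also rose, from 58.1 ± 4.08 CPM at 1 h to 72.7 ± 3.24 CPM at 4 h (SD, n = 4 each). This was a called log2 change of 0.32 in the solvent cultures. On the log2 scale the change with SK-3-91 against DMSO at the 3 times was -0.02 ± 0.06, -1.61 ± 0.07 and -2.11 ± 0.08 (SE, 4 libraries in each group), with adjusted p = 0.78, 1.2e-23 and 1.2e-25 by edgeR. The decrease from the 4 h to the 8 h response was itself past the threshold (difference -0.50, adjusted p = 0.00017).

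PSMB2, a beta subunit without catalytic activity, moved the other way. Its 1 h values were 357, 333, 340 and 361 CPM with SK-3-91 and 314, 307, 304 and 309 CPM with DMSO, and its 4 h values 631, 616, 605 and 615 CPM with SK-3-91 and 303, 313, 310 and 302 CPM with DMSO. It reached 800, 745, 855 and 743 CPM with SK-3-91 at 8 h, against 305, 315, 308 and 322 CPM with DMSO. The groups did not overlap at any time, and the log2 fold change was 0.17 ± 0.04, 1.01 ± 0.04 and 1.33 ± 0.04 (adjusted p = 0.00028, 3.8e-25 and 1.8e-29). PSMB6 and PSMB7 carry the other catalytic activities of the core. They changed by 0.85 and 0.89 at 4 h and by 0.21 and 0.72 at 8 h on the log2 scale, where PSMB6 libraries overlapped between groups at 8 h.

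Among the alpha genes, which form the outer rings and the gate of the core, PSMA7 and PSMA5 parted. PSMA7 held 761, 761, 757 and 677 CPM with SK-3-91 at 8 h, against 332, 353, 318 and 366 CPM with DMSO. Its means at 4 h were 729 ± 53.7 CPM with SK-3-91 and 321 ± 11.8 CPM with DMSO (SD, n = 4 each), and the log2 fold change was 0.28, 1.18 and 1.11 at the 3 times, each called. PSMA5 at 8 h stood at 55.1, 54.2, 64.4 and 58.4 CPM with SK-3-91 and at 110, 114, 120 and 115 CPM with DMSO. Those groups were apart, while at 4 h they overlapped, at 116, 114, 110 and 125 CPM with SK-3-91 and 110, 122, 122 and 113 CPM with DMSO. The log2 fold change of PSMA5 at the 3 times was 0.12 ± 0.05, -0.01 ± 0.05 and -0.99 ± 0.06 (adjusted p = 0.033, 0.92 and 8.9e-20). The 1 h call of PSMA5 was lost without scaling factors and with limma-trend (0.09 each), and without DMSO replicate 3 or 4 or SK-3-91 replicate 1, 3 or 4 (0.09 to 0.12), while at 4 h no scaling factors and limma-trend gave a lower call (-0.30 and -0.28). PSMA4 changed direction, at 0.49 at 4 h and -0.48 at 8 h, both called.

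**Figure D2:**
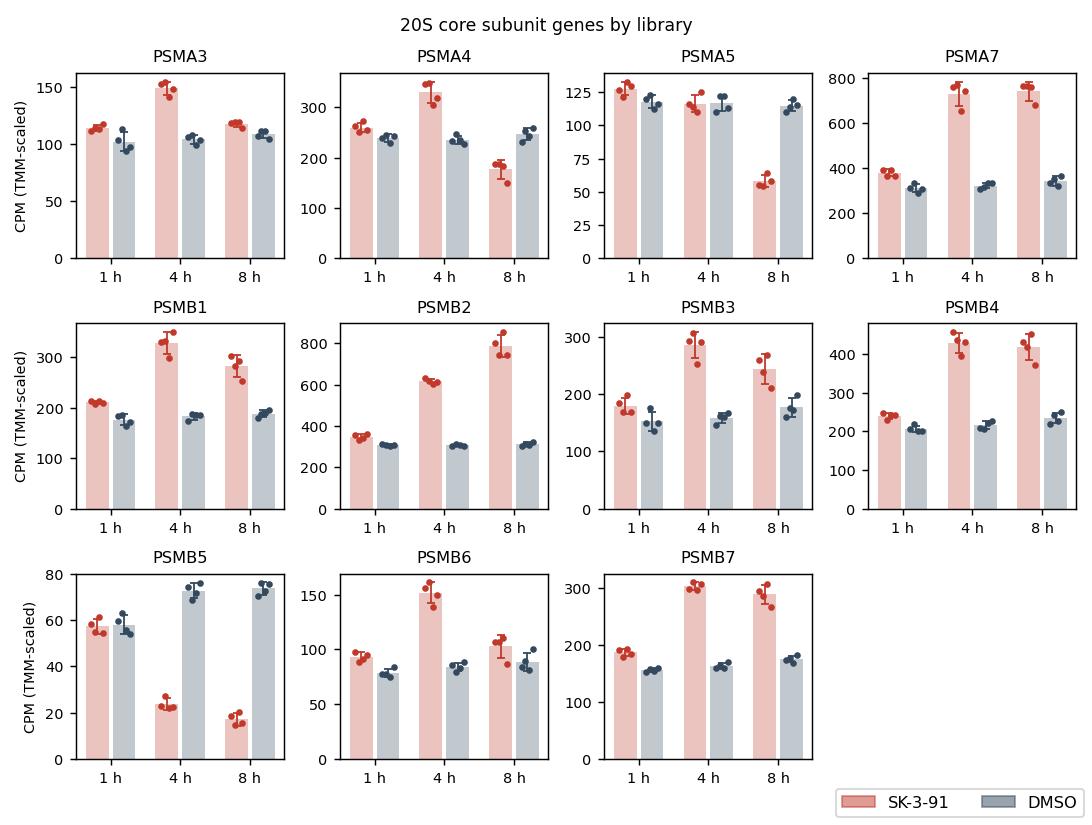
TMM-scaled CPM of the 11 core subunit genes at 1 h, 4 h and 8 h, with SK-3-91 left of DMSO, 1 point per library, bars for the mean and whiskers for the SD (n = 4). PSMB5 is the panel in which the SK-3-91 bars shrink at 4 h and 8 h, to means of 23.8 and 17.2 CPM, while those of PSMB2 reach 617 and 786 CPM.

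Levels were also compared per kilobase, using the gene widths deposited with the counts. At 8 h PSMB5 had 11.2 ± 1.82 CPM per kilobase with SK-3-91 and 48.0 ± 1.70 with DMSO (SD, n = 4 each). With DMSO it stood above PSMA5, PSMB2 and PSMB1 among the 11 core genes, and with SK-3-91 it was the lowest, next to PSMA5 at 14.3 ± 1.14 CPM per kilobase, a gap about as large as both SDs together. PSMA7 was the highest in both, at 631 ± 35.4 with SK-3-91 and 292 ± 18.4 CPM per kilobase with DMSO. These widths differ from the exon lengths of GENCODE release 29 (rank correlation 0.783 across genes), so an order between neighbours depends on them.

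Regulator genes rose at 4 h and then separated. At 1 h, 9 of 19 were higher and 1 lower, at 4 h 14 were higher and 4 lower, and at 8 h 7 were higher and 10 lower. Beside these, the shares of all genes higher and lower were 24.9% and 29.4% at 1 h, 42% and 45.9% at 4 h, and 41.3% and 48.1% at 8 h. Without scaling factors the 4 h counts of regulator genes were 9 and 5 and the 8 h counts 7 and 12. In 6 of the 19, PSMC3, PSMC4, PSMC5, PSMD4, PSMD10 and PSMD13, the call was higher at 4 h and lower at 8 h, beside 4.62% of all genes; without scaling factors PSMC3, PSMC5, PSMD4 and PSMD10 were at or just below 0 at 4 h and so did not turn. Outside the regulator the same pattern was found in 2 members, PSMA4 and UBE2L6. The opposite pattern, lower at 4 h and higher at 8 h, was found in PSMC2 and UBE2W, beside 3.71% of all genes.

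The ATPase genes PSMC3 and PSMC2 of the regulator ring took opposite courses. PSMC3 held 192, 187, 181 and 195 CPM with SK-3-91 at 1 h, against 185, 181, 176 and 164 CPM with DMSO, and 221, 233, 231 and 223 CPM with SK-3-91 at 4 h, against 180, 186, 193 and 184 CPM with DMSO. Later, at 8 h, it held 103, 109, 124 and 108 CPM with SK-3-91, against 177, 180, 189 and 203 CPM with DMSO. The log2 fold change was 0.29 ± 0.05 at 4 h and -0.76 ± 0.05 at 8 h, and their difference of -1.04 was called (adjusted p = 1.3e-16). PSMC2 held 145, 149, 164 and 162 CPM with SK-3-91 at 4 h, against 163, 172, 169 and 173 CPM with DMSO, and 283, 274, 262 and 300 CPM with SK-3-91 at 8 h, against 167, 164, 183 and 176 CPM with DMSO. Its groups overlapped at 4 h, where the small decrease of -0.12 ± 0.04 (adjusted p = 0.011) lost its call without SK-3-91 replicate 1, with RLE factors and with DESeq2 (-0.09, -0.08 and -0.08), and were apart at 8 h (0.70 ± 0.04, adjusted p = 6.7e-18).

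The 14 regulator genes without ATPase activity ran from -1.46 to 1.11 at 8 h, against -0.76 to 0.70 for the 5 ATPase genes. PSMD12, a lid subunit, held 199, 200, 189 and 196 CPM with SK-3-91 at 8 h and 88.6, 94.7, 93.1 and 86.5 CPM with DMSO, a log2 fold change of 1.11 ± 0.04 (adjusted p = 4.7e-25). PSMD14, the lid deubiquitinase that frees ubiquitin from the substrate, held 184, 165, 186 and 151 CPM with SK-3-91 and 86.5, 89.5, 90.6 and 86.6 CPM with DMSO (0.96 ± 0.05, adjusted p = 3.6e-20). Both sets of groups were apart. PSMD4, a ubiquitin receptor, went down instead at 8 h, at 32.5, 33.9, 40.0 and 26.5 CPM with SK-3-91 and 59.1, 56.3, 55.2 and 52.8 CPM with DMSO (-0.76 ± 0.07, adjusted p = 7.3e-14), after 0.27 ± 0.06 at 4 h, which was -0.03 without scaling factors.

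PSMD5 is an assembly chaperone of the regulator rather than a subunit of the finished particle, and it was the regulator gene with the largest decrease. The 8 h values were 35.8, 32.1, 30.8 and 32.3 CPM with SK-3-91, against 90.0, 90.6, 93.1 and 88.8 CPM with DMSO. It was lower from the first time on, at -0.30 ± 0.04, -1.45 ± 0.05 and -1.46 ± 0.06 (adjusted p = 2.3e-07, 2.7e-26 and 1.8e-25), with all SK-3-91 libraries below all DMSO libraries each time. The other regulator chaperones among the members did not share this course: PSMD10 was at -0.28 at 8 h and PSMD9 at 0.97. PSMD9 and PSMD7 are uncertain because 20% or more of their exon sequence is shared with other genes or lies in exons on the opposite strand.

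**Figure D3:**
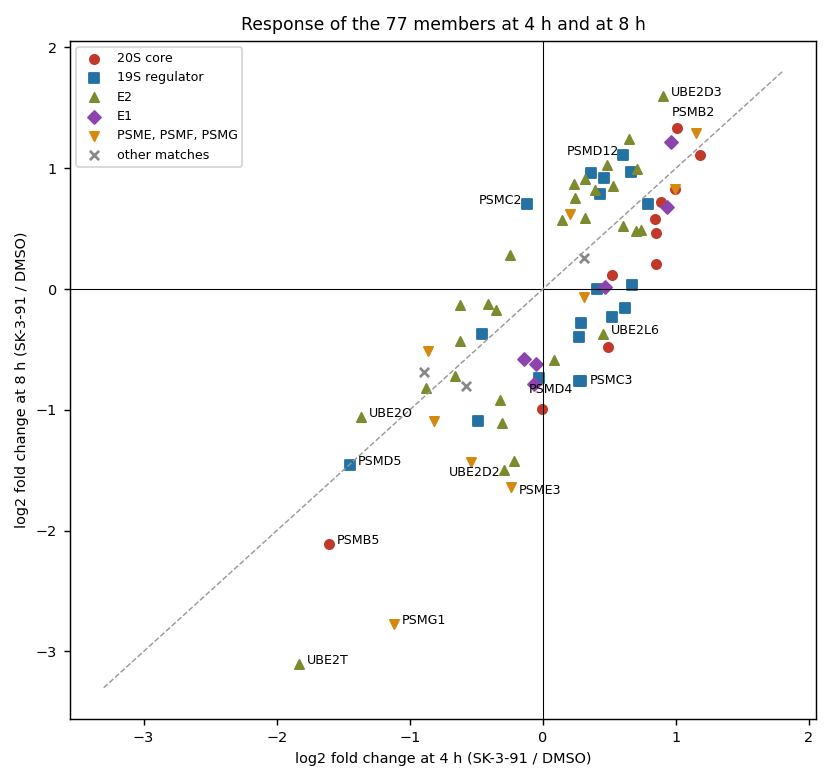
Log2 fold change (SK-3-91 over DMSO) of the 77 members at 4 h on the x axis and at 8 h on the y axis, 1 point per gene, coloured by role, with a dashed line of equality. UBE2T, PSMG1 and PSMB5 lie at the lower left, and PSMC3 and PSMD4 lie right of 0 and below it.

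The 4 PSMG assembly chaperones of the core, which pair up to build the alpha ring, fell together. At 1 h only PSMG3 was called lower (-0.18 ± 0.06, adjusted p = 0.020), with overlapping libraries. At 4 h and at 8 h all 4 were called lower, whichever of the 4 scalings was used, and their TMM-scaled libraries lay wholly below the DMSO libraries, as in 43.7% of all genes at 4 h and 45.1% at 8 h. PSMG1 held 124, 122, 124 and 127 CPM with SK-3-91 at 1 h, against 122, 131, 110 and 117 CPM with DMSO, and 52.9, 55.0, 54.8 and 54.5 CPM with SK-3-91 at 4 h, against 115, 118, 118 and 121 CPM with DMSO. By 8 h it held 18.3, 17.2, 20.1 and 17.1 CPM with SK-3-91, against 125, 122, 127 and 119 CPM with DMSO. The log2 fold change was 0.05 ± 0.04, -1.12 ± 0.05 and -2.77 ± 0.06 (adjusted p = 0.32, 1.5e-23 and 2.4e-33), so the decrease deepened between 4 h and 8 h. PSMG3 and PSMG4 were at -1.09 and -1.43 at 8 h. PSMG2 was at -0.86 at 4 h and -0.51 at 8 h, where its SK-3-91 libraries ranged from 22.7 CPM in replicate 3, the shallowest library, to 44.0 CPM. POMP, a core assembly factor outside the rule, went the other way at 4 h. It held 180, 175, 144 and 164 CPM with SK-3-91, against 101, 110, 101 and 103 CPM with DMSO. At 8 h its means were 77.1 ± 4.94 CPM with SK-3-91 and 103 ± 6.72 CPM with DMSO (SD, n = 4 each).

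The activators are caps that open the core without ubiquitin; PSME1, PSME2 and PSME4 were higher at 8 h and PSME3 lower. PSME1, which is induced by interferon and pairs with PSME2, held 625, 588, 588 and 529 CPM with SK-3-91 at 8 h, against 234, 248, 218 and 251 CPM with DMSO (1.29 ± 0.06, adjusted p = 5.9e-24). PSME2 changed by 0.99 at 4 h and 0.83 at 8 h. PSME3, which forms a nuclear cap, held 174, 174, 194 and 177 CPM with SK-3-91 at 8 h, against 578, 543, 561 and 558 CPM with DMSO, a log2 fold change of -1.64 ± 0.04 (adjusted p = 9.2e-32) after -0.24 ± 0.04 at 4 h. Those groups were apart at both times, and the PSME3 response differed between 4 h and 8 h by -1.41 (adjusted p = 6.7e-23). PSME4, an activator known from spermatogenesis and DNA repair, was at 177, 166, 134 and 176 CPM with SK-3-91 and 108, 111, 110 and 96.8 CPM with DMSO at 8 h (0.62 ± 0.06, adjusted p = 5.5e-13). PSMF1, named as an inhibitor of the core, was at 323, 318, 357 and 328 CPM with SK-3-91 and 345, 339, 351 and 351 CPM with DMSO at 8 h, where the groups overlapped (-0.07 ± 0.04, adjusted p = 0.090), after a called 0.31 at 4 h. The 4 h value was 0.01 and not called without scaling factors and with limma-trend, and the 8 h value was called lower with upper-quartile factors (-0.23), without factors (-0.50), with limma-trend (-0.48) and without SK-3-91 replicate 3 (-0.10).

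**Figure D4:**
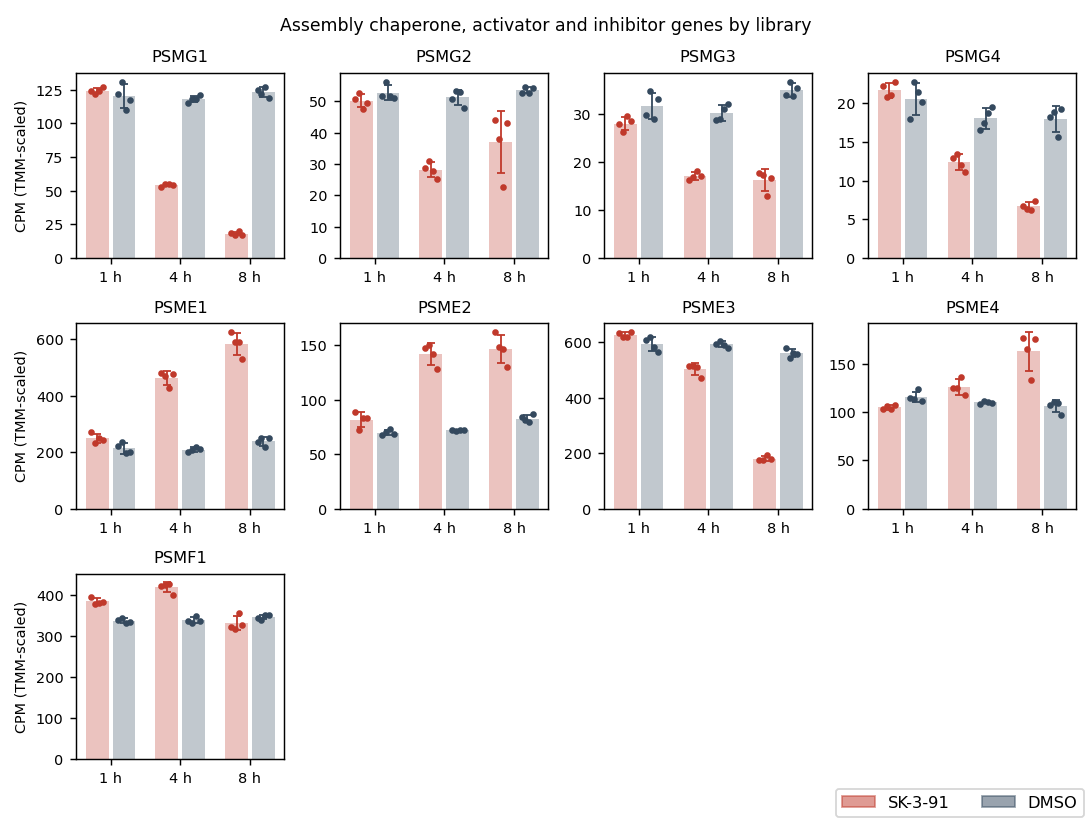
TMM-scaled CPM of the 4 PSMG, 4 PSME and PSMF1 genes at 1 h, 4 h and 8 h, with SK-3-91 left of DMSO, 1 point per library, bars for the mean and whiskers for the SD (n = 4). All 4 PSMG genes are lower with SK-3-91 at 4 h and 8 h, PSME1 and PSME2 are higher, and PSME3 drops to a mean of 180 CPM at 8 h, against 560 CPM with DMSO.

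UBA1, the main ubiquitin E1, held 943, 914, 1021 and 890 CPM with SK-3-91 at 8 h, against 577, 586, 559 and 625 CPM with DMSO (0.68 ± 0.04, adjusted p = 1.6e-18), and was called higher at all 3 times. UBA7, the ISG15 E1, held 88.2, 90.6, 106 and 94.7 CPM with SK-3-91 and 44.2, 37.9, 37.9 and 42.6 CPM with DMSO (1.22 ± 0.06, adjusted p = 5.4e-21). The SUMO E1 subunit UBA2 held 89.5, 92.3, 90.9 and 82.9 CPM with SK-3-91 and 156, 158, 154 and 148 CPM with DMSO, and the NEDD8 E1 subunit UBA3 42.4, 41.5, 36.5 and 45.8 CPM with SK-3-91 and 65.5, 65.7, 67.0 and 59.5 CPM with DMSO. Each of these 4 genes had groups apart at 8 h, with UBA2 at -0.79 ± 0.04 and UBA3 at -0.62 ± 0.06 (adjusted p = 2.1e-20 and 5.5e-13). Across the class, 3 of 6 were higher and 0 lower at 1 h, 3 and 1 at 4 h, and 2 and 3 at 8 h, beside 24.9% and 29.4%, 42% and 45.9%, and 41.3% and 48.1% of all genes.

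Of the 29 E2 genes, 10 were higher and 4 lower at 1 h, and 15 were higher and 13 lower at 4 h and again at 8 h. These are 34.5% and 13.8% at 1 h, beside 24.9% and 29.4% of all genes. At 4 h and 8 h they are 51.7% and 44.8%, not far from the 42% and 45.9%, and 41.3% and 48.1%, of all genes. With RLE factors 14 E2 genes were higher and 1 lower at 1 h. Without scaling factors the numbers were 9 and 15 at 4 h and 11 and 15 at 8 h. The range was the widest of the classes at 8 h, from -3.10 to 1.60.

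UBE2T, the E2 of the Fanconi anaemia DNA repair pathway, had the largest decrease of all members. It held 59.9, 59.7, 59.4 and 64.8 CPM with SK-3-91 at 1 h, against 68.6, 70.2, 61.0 and 65.1 CPM with DMSO, and 20.9, 19.4, 23.5 and 20.9 CPM with SK-3-91 at 4 h, against 71.3, 76.3, 74.1 and 78.5 CPM with DMSO. At 8 h it held 8.99, 8.69, 7.56 and 7.25 CPM with SK-3-91, against 66.6, 73.3, 72.9 and 67.8 CPM with DMSO. The groups overlapped at 1 h and were apart afterwards, with log2 fold changes of -0.12 ± 0.05, -1.83 ± 0.06 and -3.10 ± 0.08 (adjusted p = 0.044, 7.7e-27 and 1.1e-30). The 1 h call was lost with RLE factors and DESeq2 (-0.08 each), and without DMSO replicate 1, 2 or 4 or SK-3-91 replicate 1, 2 or 3 (-0.13 to -0.09). UBE2C and UBE2S, which serve the anaphase-promoting complex, went the other way at 8 h. UBE2C was at 203, 192, 204 and 172 CPM with SK-3-91 and 107, 108, 108 and 113 CPM with DMSO (0.82 ± 0.05, adjusted p = 3.3e-18), and UBE2S at 125, 134, 149 and 127 CPM with SK-3-91 and 79.0, 88.1, 86.7 and 106 CPM with DMSO (0.57 ± 0.06, adjusted p = 5.6e-11).

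The UBE2D genes, close paralogs that work with many ligases, did not move as a family. UBE2D3 held 407, 399, 421 and 412 CPM with SK-3-91 at 1 h, against 381, 390, 366 and 354 CPM with DMSO, and 675, 681, 717 and 707 CPM with SK-3-91 at 4 h, against 357, 380, 382 and 366 CPM with DMSO. At 8 h it held 1192, 1116, 1219 and 1104 CPM with SK-3-91, against 376, 380, 394 and 377 CPM with DMSO, the largest increase among the members (1.60 ± 0.04, adjusted p = 2.9e-32). UBE2D1 was also higher at 8 h (1.03 ± 0.07), whereas UBE2D2 was at -1.50 ± 0.06 and UBE2D4 at -1.11 ± 0.08. UBE2D1 and UBE2D3 libraries lay wholly above DMSO at 8 h, as in 38.8% of all genes, and UBE2D2 and UBE2D4 libraries wholly below. UBE2D2 and UBE2D4 had both been called higher at 1 h, at 0.20 and 0.14, and lower at 4 h, at -0.29 and -0.31.

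**Figure D5:**
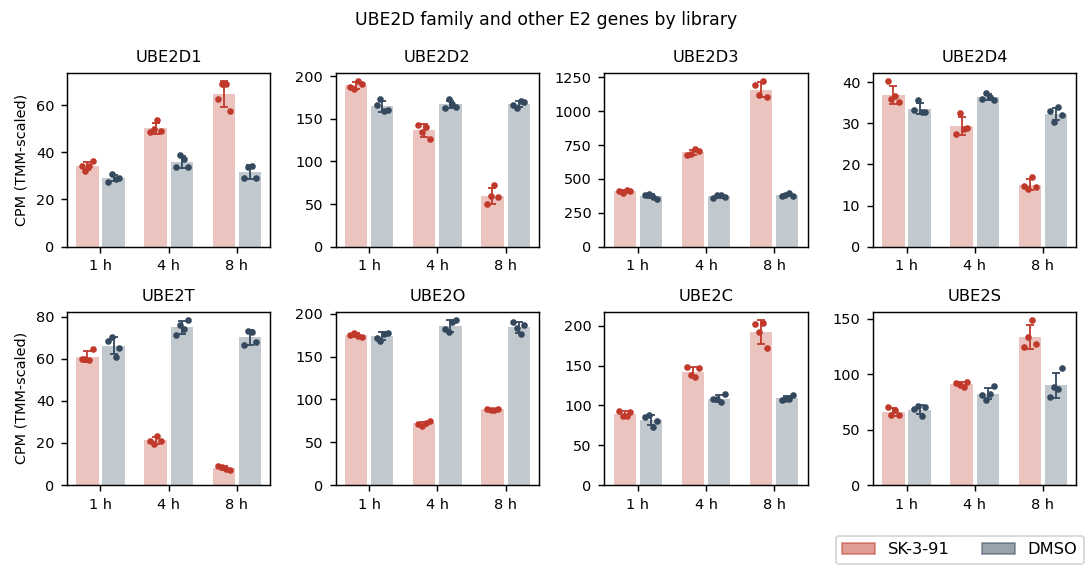
TMM-scaled CPM of the 4 UBE2D genes and of UBE2T, UBE2O, UBE2C and UBE2S at 1 h, 4 h and 8 h, with SK-3-91 left of DMSO, 1 point per library, bars for the mean and whiskers for the SD (n = 4). UBE2D3 rises with SK-3-91 to a mean of 1158 CPM at 8 h while UBE2D2, UBE2D4 and UBE2T are below their DMSO bars.

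E2 genes for other modifiers were mixed as well. UBE2M, the NEDD8 E2, was at 63.9, 75.2, 79.7 and 68.6 CPM with SK-3-91 at 8 h and at 130, 132, 135 and 145 CPM with DMSO (-0.92 ± 0.05, adjusted p = 1.2e-19). UBE2L6, the ISG15 E2, was higher at 4 h (0.45 ± 0.04) and lower at 8 h, at 176, 169, 171 and 165 CPM with SK-3-91 and 216, 213, 217 and 232 CPM with DMSO (-0.37 ± 0.04, adjusted p = 2.2e-10), while UBA7 and ISG15 itself were higher at both times.

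Among ubiquitin E2 genes used by cullin and other ligases, UBE2G1, which extends chains on substrates of cereblon-based degraders, was at 261, 259, 268 and 249 CPM with SK-3-91 at 8 h and 144, 142, 143 and 138 CPM with DMSO (0.87 ± 0.04, adjusted p = 6.2e-23). UBE2N, which builds non-degradative chains with a UBE2V partner, was at 354, 337, 353 and 338 CPM with SK-3-91 and 167, 180, 176 and 170 CPM with DMSO (0.99 ± 0.04, adjusted p = 1.7e-24). UBE2N is uncertain because 43.2% of its exon words, read on either strand, are shared. NUDT4 exons on the opposite strand cover 39.5% of the UBE2N exon bases, and the strand setting of the counts is unknown. The UBE2N partner UBE2V2 was lower, at -1.42 ± 0.06 (adjusted p = 5.4e-24). UBE2L3, a partner of HECT and RBR ligases, changed by 1.24 at 8 h, and UBE2O, a large enzyme with both E2 and E3 activity, by -1.37 at 4 h and -1.06 at 8 h. UBE2W, which ubiquitinates protein N-termini, was lower at 1 h and 4 h and higher at 8 h, at -0.52, -0.25 and 0.28, although without scaling factors its 8 h value was -0.15.

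The response changed with time in most members. Between 1 h and 4 h, 70 of 77 responses differed (edgeR adjusted p under 0.05), beside 80.4% of all genes, and between 4 h and 8 h 65 did, beside 68.6%. In DMSO alone, 15 members changed between 1 h and 4 h and 17 between 4 h and 8 h, beside 35.1% and 30.7% of all genes. Of the members, 21 were higher at all 3 times and 6 lower at all 3, with UBE2T among the 6 although its 1 h call was lost as given above, beside 14.7% and 16.3% of all genes.

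Of 12 proteasome-associated genes outside the rule, 6 were higher and 5 lower at 8 h, close to the 41.3% and 48.1% of all genes. SEM1, a small regulator subunit, changed by 1.66 and ADRM1, a ubiquitin receptor of the regulator, by 1.63, whereas PAAF1, a factor that binds regulator ATPases, changed by -1.98. The 9 measured genes of the NFE2L1 axis split 5 higher and 4 lower at 8 h. NFE2L1 itself was at -1.37 ± 0.05 and NGLY1, the enzyme that activates it by removing its sugar chains, at -1.65 ± 0.06, while MAFG, a DNA-binding partner, was at 3.0 ± 0.06 and BACH1, a repressor at the same DNA sites, at 2.06 ± 0.05, all called at 4 h as well. Of the 4 ubiquitin precursor genes, 3 were higher and 1 lower at 8 h. RPS27A was among the higher (1.31), and UBB, which is uncertain for shared sequence, was the lower one (-0.71).

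The shuttle factors that carry ubiquitinated proteins to the proteasome were higher in 4 of 4 at 4 h and at 8 h, with UBQLN1 at 1.29 and RAD23B at 0.76. The 4 E2 and E2-like genes with other symbols were lower at 4 h, 4 of 4, and at 8 h 3 were lower and 1 higher, with TSG101, of the endosomal sorting complex, at -2.86 ± 0.10 and CDC34, a cullin ligase E2, at -0.87 ± 0.07. Of the 8 measured genes of ubiquitin-like modifiers and E1 partners, 5 were higher and 1 lower at 8 h. UFM1 was at 1.55, SUMO3 at 1.16 and ISG15 at 1.02, and NAE1, the partner of UBA3, at -0.62. Over all genes 42% were higher and 45.9% lower at 4 h, and 41.3% and 48.1% at 8 h.

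The 3 matches that are not subunit genes also responded. PSME3IP1, whose product binds PSME3, was at 140, 135, 138 and 138 CPM with SK-3-91 at 8 h and 118, 109, 114 and 118 CPM with DMSO (0.26 ± 0.04, adjusted p = 3.8e-07), and at -0.17 without scaling factors. PSMG3-AS1 was at 3.23, 3.86, 4.43 and 2.61 CPM with SK-3-91 and 6.28, 5.35, 6.05 and 6.64 CPM with DMSO (-0.80 ± 0.16, adjusted p = 1.4e-05); as an antisense gene counted with an unknown strand setting it cannot be told apart from reads of its neighbour where they overlap, which was 0.9% of its exon bases. PSMC3IP, a meiotic recombination factor, was at -0.69 at 8 h. It is uncertain because it shares 25.9% of its exon words, read on either strand, with MLX. Exons of MLX on the opposite strand cover 29.9% of its exon bases.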

How the data were processed

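Read counts per gene were analysed for 24 MOLT4 libraries. Per the labels' protocols, libraries from total RNA were read from 1 end, 50 bases each, on a BGISEQ-500. The deposited count table holds whole-number counts per gene, not normalized; its lowest gene mean was 32.04 counts, and of the 77 members the lowest mean was 66.46 and the lowest single count 18. Per the submitters' processing notes the build was hg19 and edgeR was used; the sources used here do not name the aligner, counter, strand setting or annotation. The authors' second table, named for RPKM, holds log2 values that are linear in the counts (largest relative gap 3.9e-07%) and carry no gene length.

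The main fit was edgeR's (version 4.0.16, R 4.3.3) with TMM factors and 1 mean per group over all 24 libraries. filterByExpr removed 0 genes, so all 77 members passed. Contrasts were tested by quasi-likelihood, with p-values adjusted by Benjamini-Hochberg over 9822 genes at 0.05. The common coefficient of biological variation came to 0.0422. The SE of a log2 fold change is its size divided by the root of F, and CPM is TMM-scaled. Differences between times are contrasts of the same model. Tables and figures were made in Python 3.11.15 with pandas 2.3.3. On simulated data for the 8 h comparison over 9822 genes, 99 of 100 changes of 1 and 91 of 100 changes of 0.5 on the log2 scale were recovered, with 7 false calls. Only these genes were changed in the simulation, equally up and down. It could not show how the scaling behaves where most genes are called, as in the data at 8 h.

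The members and lists were chosen with earlier results of these data known, so class medians and counts are descriptions without a test. Members named with library values are the largest called increase and decrease of each class at 8 h with a mean of at least 2 CPM in the higher group, and a fixed set (among them PSMB5, PSMD4, PSMD14, PSME1, PSME4, PSMF1, UBA1, UBA3, UBA7, UBE2C, UBE2D3, UBE2G1, UBE2L6, UBE2M, UBE2N, UBE2S and UBE2T). Those values are printed for 8 h, and for earlier times in the genes with the clearest courses, a selection made after the values were seen. Other members, PSME3 with its library values among them, were named after their values were seen. Genes sharing 20% or more of their 32-base exon words, or of their exon bases with the opposite strand, in GENCODE release 29 are given as uncertain, among them PSMC3IP, PSMD7, PSMD9 and UBE2N and, in the lists, AKTIP, UBB and UBQLN4. Some genes of the fixed set and lists are not reported here. Replicate numbers did not pair the samples. Libraries of 1 group differed by more than sampling noise (chi-square per degree of freedom 1.633 to 7.822), so none was a duplicate. Alternatives were other scaling factors, filters, fits (DESeq2 1.42.0, limma-trend of limma 3.58.1), a minimum fold of 1.5, the replicate block, subsets of members and each library left out.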

Additional observations from a re-analysis of the deposited data

Results flagged for a closer look

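In 5 of the 29 members named by rule the response was called in opposite directions at neighbouring times, and the difference itself was tested. Between 4 h and 8 h the log2 fold change moved by -1.04 for PSMC3, -1.03 for PSMD4, -0.82 for UBE2L6 and 0.82 for PSMC2, and between 1 h and 4 h by 0.34 for PSME4 (edgeR adjusted p = 1.3e-16, 1.6e-13, 2.2e-15, 1.8e-14 and 0.0002). Without scaling factors PSMC3, PSMD4 and PSME4 were slightly below 0 at 4 h, so their opposite directions depend on the scaling. The 4 h call of PSMC2 was lost with RLE factors and DESeq2 (-0.08 each). Its signs stayed opposite under each scaling, at -0.42 at 4 h and 0.27 at 8 h without scaling factors. The lower call of PSME4 at 1 h was also lost with RLE factors and DESeq2 (-0.10 each), and without DMSO replicate 3 or SK-3-91 replicate 1 or 3 (-0.13 to -0.11). PSMA5 and UBA3, also named by rule, were called higher at 1 h, not called at 4 h and called lower at 8 h. Their change from 1 h to 8 h was not tested, and both 1 h calls were lost without scaling factors (0.09 and 0.10).

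In 6 of 174 groups of 4 libraries, 1 library lay apart from the other 3 by Dixon's criterion, which chance meets in about 1 of 20 groups. With SK-3-91 these were PSMA7 at 8 h (677 CPM in replicate 4, the lowest), PSMB5 at 4 h (27.4 CPM in replicate 2, the highest), PSMF1 at 4 h (401 CPM in replicate 4, the lowest), UBA1 at 1 h (685 CPM in replicate 1, the highest) and UBE2T at 1 h (64.8 CPM in replicate 4, the highest). With DMSO it was UBE2L6 at 1 h (178 CPM in replicate 3, the lowest). SK-3-91 replicate 4 at each of 1 h, 4 h and 8 h is among them, with 1 gene each.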

How the results depend on the processing

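Counts of called members kept within 1.5 times their reported value except in these cases. Against a minimum fold of 1.5, 0 members were higher and 0 lower at 1 h, 18 and 10 at 4 h, and 21 were lower at 8 h; 16 responses differed between 1 h and 4 h and 18 between 4 h and 8 h; and in DMSO 0 and 0 changed, which follows from the stricter null. Of the lower calls at 1 h, 3 were made with RLE factors and 3 with DESeq2. The replicate block gave 37 higher at 1 h and otherwise 8, 46, 26, 36 and 36, the reported counts; replicate numbers did not pair the samples (r from -0.119 to 0.022 over 12 pairs, with 0.1 needed). Class medians followed the scaling, in log2 units. The core median was 0.55 at 4 h and 0.03 at 8 h without scaling factors, 0.52 and 0.03 with limma-trend on the deposited values, and 0.30 at 8 h with upper-quartile factors. The regulator median at 1 h was 0.15 with RLE factors and DESeq2, 0.09 without factors and 0.08 with limma-trend. At 4 h it was 0.41 with RLE factors and DESeq2, 0.30 with upper-quartile factors, 0.06 without factors, 0.05 with limma-trend and 0.29 without members that share sequence. At 8 h it was -0.06 with RLE factors and DESeq2, -0.32 with upper-quartile factors, -0.59 without factors, -0.54 with limma-trend and -0.23 without members that share sequence. The E2 median at 1 h was 0.09 with RLE factors and DESeq2. At 4 h it was 0.19 with both, 0.08 with upper-quartile factors, 0.17 with the 8 libraries of that time, 0.08 without members that share sequence, and turned to -0.16 without factors and -0.14 with limma-trend. At 8 h it was 0.11 with upper-quartile factors and turned to -0.15 without factors, -0.12 with limma-trend and -0.12 without members that share sequence. Named genes that turned at 4 h, without factors and with limma-trend, were PSMC3 (-0.01 and -0.01), PSMD4 (-0.03 and -0.02), PSME4 (-0.10 and -0.10), UBE2G1 (-0.07 and -0.07) and UBE2S (-0.16 and -0.14), and at 8 h PSME3IP1 (-0.17 and -0.15). The cause was not tested. Leaving out 1 library gave 28 to 41 higher and 4 to 8 lower at 1 h, 45 to 46 and 25 to 27 at 4 h, 35 to 36 and 36 to 37 at 8 h, 66 to 72 and 63 to 66 responses that differed, and 11 to 16 and 11 to 22 changes in DMSO. The lower count at 1 h was 4 without DMSO replicate 2, 4 without SK-3-91 replicate 1 and 5 without SK-3-91 replicate 2 of that time, and the later DMSO count was 11 without DMSO replicate 4 at 8 h. The medians ranged over 0.19 to 0.24, 0.82 to 0.89 and 0.42 to 0.53 for core genes, 0.10 to 0.12, 0.33 to 0.40 and -0.17 to -0.13 for regulator genes, and 0.04 to 0.07, 0.11 to 0.18 and 0.24 to 0.33 for E2 genes. Of 2958 values of named genes under an alternative, 2811 kept direction and call. Depth was lowest with SK-3-91 at 8 h, and the SE was 0.16 for PSMG3-AS1, a low gene.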

Other observations

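Across the 77 members, the log2 fold change at 1 h had a rank correlation of 0.45 with the DMSO level per kilobase and of -0.27 with the deposited gene width, and at 8 h these were 0.12 and 0.09. Over all 9822 genes the values at 1 h were 0.26 and -0.26. Genes within the same libraries are not independent replicates, and no test was made. Summed over all core genes, the level was 3333, 3211, 3430 and 2945 CPM with SK-3-91 at 8 h, against 1972, 2093, 2013 and 2167 CPM with DMSO. Much of this rise lay in PSMA7 (means of 739 against 342 CPM) and PSMB2 (786 against 312 CPM), while 3 of the 11 core genes were lower. The summed level of the 4 PSMG assembly chaperones was 86.84, 78.9, 61.97 and 84.52 CPM with SK-3-91, against 230.1, 232.4, 229.4 and 228.0 CPM with DMSO. These sums are TMM-scaled, and without scaling factors the median log2 fold change of core genes at 8 h was 0.03.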
